A study of Mus musculus with 4 samples.

Results

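For every autosomal gene, the change in ribosome footprints from embryonic stem cells (ESCs) to embryoid bodies (EBs) in Mettl3-KO cells was set against the same change in wild-type (WT) cells. The quantity described is the KO EB over KO ESC ratio minus the WT EB over WT ESC ratio, both as log2 of the normalised count + 1, and is called the difference here. It was computed for the 9265 autosomal genes, of 9670 genes in all, whose mean over the 4 libraries was at least 25. The others, 332 X-linked genes, 4 Y-linked genes and 69 with no position, were left out. Mouse cells of strain C57BL/6 gave 1 ribosome profiling library each for WT ESCs, WT EBs, Mettl3-KO ESCs and Mettl3-KO EBs. The ESCs of both genotypes grew without serum on LIF with the GSK3 inhibitor CHIR99021 and the MEK inhibitor PD0325901, which holds them in the naive state. Both kinds of EBs were non-adherent aggregates kept in medium with fetal bovine serum for 8 to 21 days, but no source used here gives the day of each library. How the knockout was made, and whether each line was 1 clone, is not stated either, so genotype, cell line, EB age and library cannot be told apart.

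Ribosome profiling sequences the mRNA stretches that ribosomes shield from nuclease, so a footprint count follows both how much mRNA a gene has and how densely ribosomes load it. Mettl3 is the methyltransferase that places N6-methyladenosine (m6A) on mRNA, a mark bound by reader proteins and linked to the turnover of transcripts. Naive ESCs resemble the epiblast of the blastocyst. When they aggregate without LIF, the outer cells of the aggregate form primitive and visceral endoderm, an epithelium that takes up protein from its surroundings, secretes plasma proteins and lays down a basement membrane, while the inner cells leave the naive state and can go on to the germ layers.

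A gene was counted when its difference was at least 1 or at most −1, which means that the ratios of the 2 genotypes were at least 2-fold apart. With 1 library per group there is no p-value. Values in brackets after a difference are 95% counting intervals, exact for the odds ratio of the 4 read counts, and they cover counting error only. The difference was at least 1, meaning a larger EB over ESC ratio in KO, for 998 of 9265 genes (10.8%), and at most −1 for 1168 (12.6%). The counts of each gene list below are to be read beside these shares. The median over all genes was −0.09, the quartiles were −0.60 and 0.44, and the 5th and 95th percentiles −1.59 and 1.56. A narrower count took the genes whose whole interval lay beyond 1, 420 above (4.53%) and 486 below (5.25%). A difference of 2 or more was found for 251 genes (2.71%) and of −2 or less for 299 (3.23%). The interval lay wholly above 0 for 2487 genes (26.8%) and wholly below for 3254 (35.1%). The genes next to the limit were Slc25a38 (1.0002) just inside it on the upper side, and Plekhg3 (−1.0011) just inside and Mtrex (−0.9998) just outside it on the lower side.

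**Figure D1:**
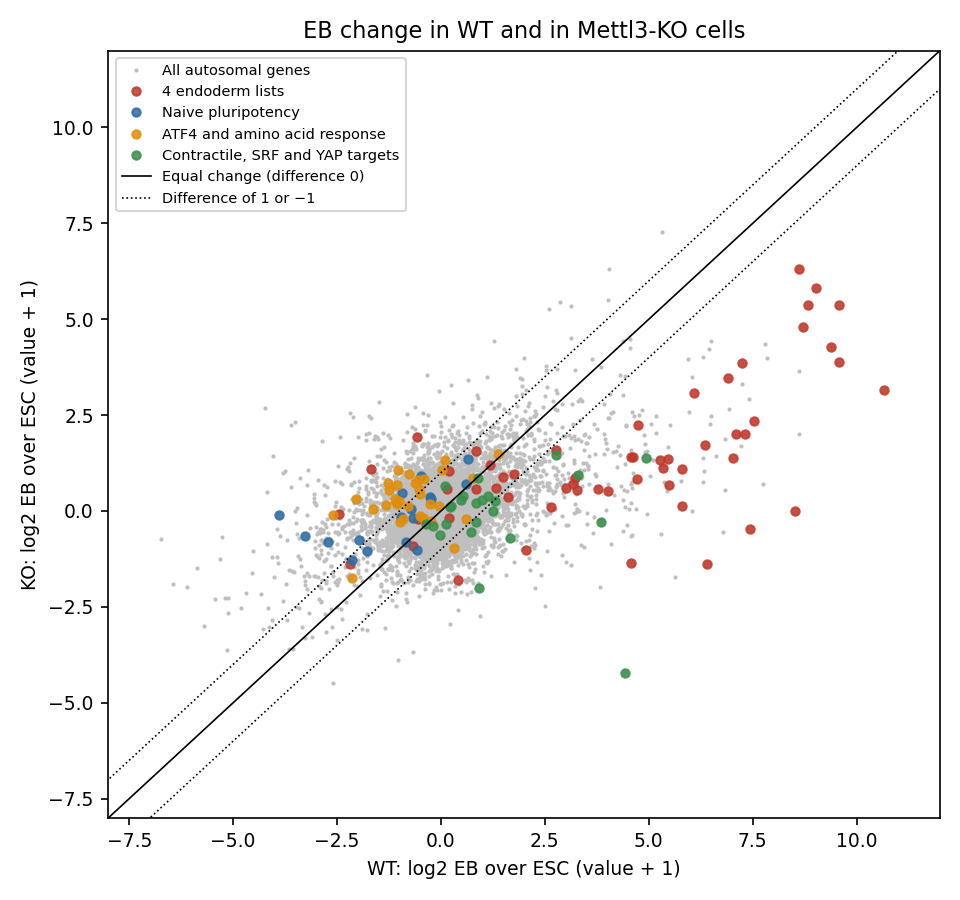
Each point is 1 autosomal gene, with the log2 EB over ESC ratio in WT on the x axis and in KO on the y axis, both of the value + 1 from 1 library per group. The solid line marks a difference of 0 and the dotted lines 1 and −1. Most endoderm genes (red) lie below the lower dotted line, naive pluripotency genes (blue) and ATF4 genes (orange) mostly above the solid line.

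The most frequent pattern among the counted genes, in both directions, was a stage change of at least 2-fold in WT alone. Of the 1168 genes at −1 or less, 404 had WT EBs at least 2-fold above WT ESCs and stayed within 2-fold in KO, 142 were at least 2-fold higher in both genotypes, and 33 went at least 2-fold up in WT and down in KO. Another 238 stayed within 2-fold in WT with KO EBs at least 2-fold below KO ESCs, and 343 passed 2-fold in neither. Of the 998 genes at 1 or more, 347 were at least 2-fold lower in WT EBs and within 2-fold in KO, 235 were within 2-fold in WT and at least 2-fold higher in KO EBs, 52 went in opposite directions, and 279 passed 2-fold in neither. The EB changes of the genotypes share no library. Genes at least 2-fold higher in EBs numbered 1006 in WT (10.9%) and 830 in KO (8.96%), and the 401 in common were 39.9% of the WT list and 48.3% of the KO list. For genes at least 2-fold lower the lists held 720 (7.77%) and 614 (6.63%), and the 186 in common were 25.8% and 30.3% of them.

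Seen between genotypes, the counted genes stood apart more often in the EB libraries than in the ESC libraries. KO was at least 2-fold above WT for 985 genes (10.6%) in ESCs and 1385 (14.9%) in EBs, and at least 2-fold below for 378 (4.08%) and 1136 (12.3%). Of the 998 genes at 1 or more, 499 were within 2-fold in ESCs and at least 2-fold higher in KO EBs, 99 were at least 2-fold lower in KO ESCs and within 2-fold in EBs, and 54 crossed from lower to higher. Of the 1168 at −1 or less, 520 were within 2-fold in ESCs but lower by at least 2-fold in KO EBs, 222 were at least 2-fold higher in KO ESCs and within 2-fold in EBs, and 77 crossed from higher to lower. The SD of the KO over WT log2 ratio across genes was 0.77 in ESCs and 1.12 in EBs. The EB libraries were also the shallower ones, with 4075850 to 4234361 reads on genes against 8570204 to 11455539 in ESCs.

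**Figure D2:**
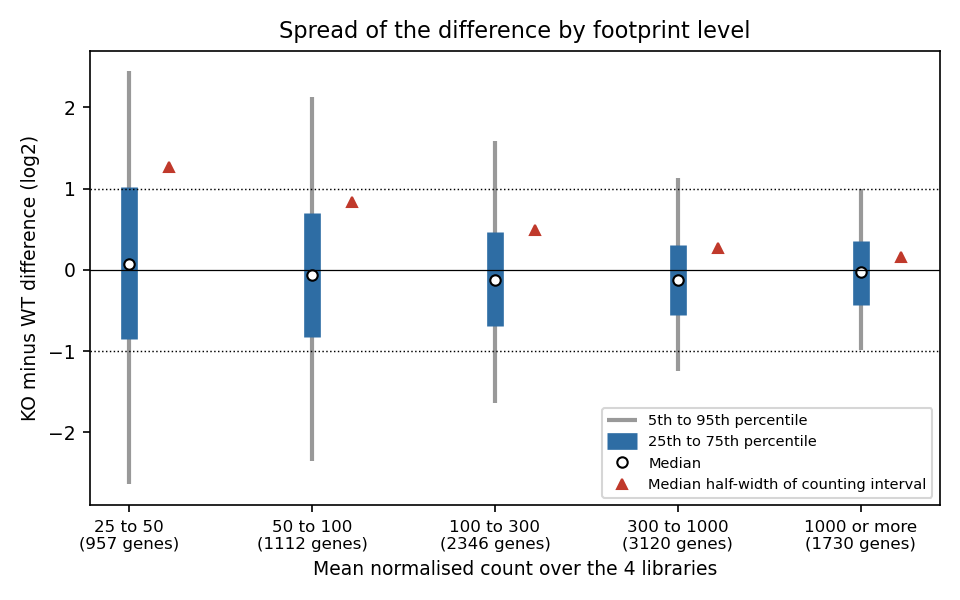
The difference (y axis, log2) is summarised in 5 classes of mean normalised count (x axis), with the median as a point, the quartiles as a thick bar and the 5th to 95th percentile as a thin bar. Triangles give the median half-width of the 95% counting interval, which drops from 1.27 in genes of 25 to 50 to 0.154 in genes of 1000 or more.

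The level of a gene set how much of this spread counting error could hold. The SD of the difference across genes dropped from 1.63 at a mean of 25 to 50 to 0.65 at 1000 or more, and the share counted in either direction from 25.5% and 22.4% to 4.97% and 4.91%. In genes of 1000 or more the median half-width of the counting interval was 0.154. With 1 library per group, the spread between replicate libraries is unknown at every level.

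Endoderm transcription factors gained far more in WT EBs than in KO EBs. Of 15 autosomal members 11 passed the mean of 25, and 10 of the 11 had a difference of −1 or less, 0 of 1 or more. The median difference was −3.23, against −0.09 over all genes. The median log2 EB over ESC ratio was 4.72 in WT and 0.83 in KO, whereas KO and WT ESCs differed by a median of only −0.07. A gene that is low in 3 libraries passes the mean only if the fourth is high. These counts, and those of every other gene list below, therefore describe only the members that passed. In bulk libraries, fewer endoderm cells and less RNA per endoderm cell cannot be told apart.

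Hnf4a, the nuclear receptor that drives the secretory programme of visceral endoderm (chromosome 2, 163506811 to 163572907 in GRCm38), was read at 6.23 in WT ESCs, 399 in WT EBs, 61.3 in KO ESCs and 67.2 in KO EBs (normalised counts). It was 64.1-fold (32.03 to 150.02) higher in WT EBs than in WT ESCs, while the KO libraries were 1.09-fold (0.758 to 1.56) apart, which gave a difference of −5.66 (−7.19 to −4.698). Hnf4a therefore crossed: KO was 9.85-fold (4.84 to 23.4) higher in ESCs and 5.94-fold (4.31 to 8.35) lower in EBs. Sox7, at 7.005 and 357 in WT and 4.27 and 7.46 in KO (ESCs, then EBs), had a difference of −4.798 (−7.05 to −2.72).

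Gata4 and Gata6, the zinc finger factors that specify primitive endoderm, kept a part of their WT gain in KO. Gata6 stood at 24.1 in WT ESCs, 665 in WT EBs, 22.9 in KO ESCs and 112 in KO EBs, a difference of −2.49 (−3.303 to −1.69). Gata4 stood at 48.3 in WT ESCs, 1217 in WT EBs, 47.5 in KO ESCs and 127 in KO EBs, with −3.23 (−3.83 to −2.64). The 2 ESC libraries were alike for both genes, so that the whole gap lay between the EB libraries. Foxa3 had −2.41 (−3.58 to −1.3000). Hhex was the exception in the list: at 213 and 132 in WT and 161 and 85.1 in KO it was lower in EBs than in ESCs of both genotypes, with a difference of −0.23 (−0.80 to 0.33).

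The promoter of Hnf4a is shown because Hnf4a crossed between the genotypes, and because GATA factors bind sequences of the form AGATAA. The 250 bases before 1 of its annotated starts (RefSeq, GRCm38.p6, chr2:163506607-163506856, plus strand, 5′ to 3′) hold this match in capitals, 52 to 47 bases before the start:
Hnf4a: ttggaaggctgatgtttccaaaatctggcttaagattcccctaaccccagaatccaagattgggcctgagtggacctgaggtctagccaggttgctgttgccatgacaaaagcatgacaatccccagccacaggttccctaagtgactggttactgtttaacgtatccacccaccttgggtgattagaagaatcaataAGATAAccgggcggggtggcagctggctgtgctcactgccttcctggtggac
Of the 56 members of the 4 endoderm lists that passed, 41 matched a RefSeq promoter by symbol, and 8 of these had AGATAA on either strand. The windows searched held the 250 bases before each start and a short stretch after it, so a match may lie outside the bases printed. The match was in 15.7% of their windows, in 5.78% of the windows of all genes tested and in 11.2% of all 32851 windows. The median difference was −3.63 for members with the match and −3.20 for those without, a gap that was not tested. A match of this kind is a description of the letters, and binding was not measured.

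The apical and endocytic surface of the endoderm followed the same pattern. Visceral endoderm takes up protein through cubilin, megalin and their partner amnionless. Of 24 autosomal members 15 passed, 12 of them at −1 or less and 0 at 1 or more, with a median difference of −3.44. The median EB over ESC ratio was 5.34 in WT and 1.11 in KO on the log2 scale. Amn, which encodes amnionless (chromosome 12, 111271096 to 111276426), stood at 12.5 in WT ESCs, 1750.2 in WT EBs, 33.6 in KO ESCs and 89.6 in KO EBs, and its difference was −5.64 (−6.69 to −4.798). Lrp2, which encodes megalin, stood at 336 in WT ESCs, 13679 in WT EBs, 629 in KO ESCs and 1363 in KO EBs, with −4.23 (−4.42 to −4.04). Both were higher in EBs of each genotype, but the WT EB library was far above the other 3.

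The transmembrane mucin Muc13 had the lowest difference of the list. At 3.11 in WT ESCs, 711 in WT EBs, 17.1 in KO ESCs and 11.9 in KO EBs it was 228-fold (88.5 to 841) higher in WT EBs and 1.43-fold (0.645 to 3.59) lower in KO EBs than in their ESCs, a difference of −7.92 (−10.46 to −6.39), and 28.4% of the 28-nt windows of its coding sequence have a copy elsewhere in the genome. The peptidase Enpep stood at 1.56 in WT ESCs, 408 in WT EBs, 0 in KO ESCs and 2.99 in KO EBs, where the value in KO EBs is 2 reads. The serine protease Tmprss2 had −5.202 (−7.55 to −3.78) from values of 3.11 and 764 in WT and 10.1 and 55.2 in KO. The glucose transporter Slc2a3, which ESCs also carry in quantity, went against the list, at 13045 and 14887 in WT and 8090.2 and 16633 in KO with a difference of 0.85 (0.80 to 0.90).

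Secreted plasma proteins and apolipoproteins are the main products of visceral endoderm. Of 31 autosomal plasma protein genes 14 passed, 10 at −1 or less and 2 at 1 or more, with a median of −2.96, or −3.04 with libraries at 0 set to a floor of 3 reads. Ttr, which encodes the thyroid hormone carrier transthyretin (chromosome 18, 20664209 to 20674326), stood at 0 in WT ESCs, 1612 in WT EBs, 2.13 in KO ESCs and 26.9 in KO EBs. With the WT ESC library at the floor, its WT gain was at least 54.8-fold larger than its KO gain, a difference of −5.78 or lower. Habp2, a plasma protease, stood at 3.11 in WT ESCs, 349 in WT EBs, 1.600 in KO ESCs and 0 in KO EBs. With KO EBs at the floor, its EB over ESC ratio in WT was at least 40.1-fold that in KO. Both bounds allow only for the library at 0. They leave out the counting error of the other ESC values, 2.13 for Ttr and 3.11 and 1.600 for Habp2, which rest on few reads. Spp2, a secreted bone matrix and plasma protein, had reads in the WT EB library only, at 368.

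Members at the other end of the plasma protein list differed in kind. Gc, the vitamin D binding protein, stood at 67.7 in WT ESCs, 45.2 in WT EBs, 26.1 in KO ESCs and 103 in KO EBs and had a difference of 2.51 (1.71 to 3.42). Pzp, a protease inhibitor of the macroglobulin family, stood at 72.4 in WT ESCs, 12.5 in WT EBs, 47.5 in KO ESCs and 44.8 in KO EBs, with 2.36 (1.19 to 3.86). In both genes WT EBs were below WT ESCs, whereas in the 10 members at −1 or less WT EBs were above.

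Of 21 autosomal genes of lipid export 16 passed, with 9 at −1 or less and 1 at 1 or more and a median of −1.87. Apoa1, the main protein of high-density lipoprotein (chromosome 9, 46228630 to 46230469), stood at 3.11 in WT ESCs, 3116 in WT EBs, 9.602 in KO ESCs and 155 in KO EBs, a difference of −5.68 (−7.99 to −4.304). Apob, the structural protein of low-density lipoprotein (chromosome 12, 7977629 to 8016839), was at the same level in both ESC libraries, 17.1 in WT and 17.6 in KO, but 12038 in EBs of WT against 361 in those of KO. Its difference was −5.09 (−5.97 to −4.25), and Apom had −4.699 (−5.61 to −3.95). These 3 were higher in EBs of both genotypes, with the WT gain the larger. Abca1, the exporter of cholesterol from cells to lipoprotein particles, was the only member counted in the other direction. At 1129 in WT ESCs, 351 in WT EBs, 571 in KO ESCs and 1218 in KO EBs it was 3.22-fold (2.79 to 3.72) lower in WT EBs and 2.13-fold (1.94 to 2.34) higher in KO EBs than in ESCs, a difference of 2.77 (2.53 to 3.03). The lipoprotein lipase Lpl had 0.81 (0.33 to 1.32) and Apoe 0.73 (0.67 to 0.79), where Apoe stood at 7066 and 12708 in WT and 5028 and 14998 in KO.

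Genes outside these lists completed the lower end of the ranking. Among named genes with a mean of at least 100, the 12 lowest by the interval bound nearest 0 included Klb, Muc13, Amn, Hnf4a, Ttr, Srgn, Cemip, Slco2a1, Cdh6, Apoa1 and Apob. Klb, the co-receptor for endocrine fibroblast growth factors (chromosome 5, 65348411 to 65386957), stood at 17.1 in WT ESCs, 899 in WT EBs, 136 in KO ESCs and 40.3 in KO EBs. It was 52.5-fold (34.4 to 84.5) higher in WT EBs and 3.38-fold (2.27 to 5.22) lower in KO EBs than in ESCs, so the WT ratio was 165-fold (95.6 to 328) the KO ratio, a difference of −7.36 (−8.36 to −6.58). Cemip, a protein of hyaluronan turnover, moved the same way, at 146 in WT ESCs, 831 in WT EBs, 279.5 in KO ESCs and 49.3 in KO EBs, with −4.98 (−5.61 to −4.43). Both genes were higher in KO than in WT ESCs and lower in KO than in WT EBs.

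The prostaglandin transporter Slco2a1 stood at 66.9 and 1516 in WT and 235 and 184 in KO and had a difference of −4.84 (−5.304 to −4.41). Serglycin, Srgn, the proteoglycan of secretory granules, stood at 21.8 and 1816 in WT and 36.3 and 76.1 in KO, with −5.27 (−6.12 to −4.51). The cadherin Cdh6 stood at 6.23 and 570.4 in WT and 16.5 and 28.4 in KO, with −5.56 (−7.22 to −4.33). In all 3 the WT EB library stood above the KO EB library, by the smallest ratio, 8.26-fold (6.84 to 10.05), in Slco2a1.

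A second group had equal ESC libraries and differed in EBs alone. Genes at most 25% apart in ESCs but at least 2-fold below WT in KO EBs numbered 390 of 9265 (4.21%). The 5 with the largest difference at a mean of at least 100 were Apob, the protease Prss12, the hexokinase family member Hkdc1, the lysosomal protease Ctsh and Cyp26a1, which breaks down retinoic acid. Ctsh (chromosome 9, 90054267 to 90076095) stood at 14.8 in WT ESCs, 2707 in WT EBs, 13.9 in KO ESCs and 112 in KO EBs, a difference of −4.497 (−5.497 to −3.52). Cyp26a1 stood at 9.34 in WT ESCs, 1562 in WT EBs, 8.54 in KO ESCs and 94.04 in KO EBs, with −3.92 (−5.19 to −2.67), and Hkdc1 at 9.34 and 1492 in WT and 11.2 and 47.8 in KO, with −5.17 (−6.49 to −3.98). In each, the KO EB library was above both ESC libraries, at a level 16.6 to 31.2-fold under the WT EB library for these 3 genes.

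Epithelial genes showed the pattern at smaller size. Of 28 autosomal members 20 passed, 9 at −1 or less and 0 at 1 or more, with a median of −0.84. The keratins Krt8 and Krt18, which pair in the filaments of simple epithelia, had −2.43 (−2.79 to −2.104) and −2.27 (−2.55 to −2.01). Krt18 stood at 132 in WT ESCs, 3597 in WT EBs, 355 in KO ESCs and 2005 in KO EBs, higher in KO than in WT ESCs and lower in KO than in WT EBs. Their coding sequences are 71.6% and 18.4% copied elsewhere in the genome. Cingulin, Cgn, of the tight junction had −1.64 (−2.19 to −1.11). The junction protein Epcam, at 1526 and 3435 in WT and 620.4 and 2645 in KO, stood at the upper end with 0.92 (0.78 to 1.06), and E-cadherin, Cdh1, had 0.58 (0.51 to 0.64) from 7498 and 6469 in WT and 7729 and 9946 in KO.

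The basement membrane list split by chain. Of 23 autosomal members 19 passed, 5 at −1 or less and 7 at 1 or more, with a median of 0.55. Col4a1 and Col4a2, neighbouring genes for the collagen IV chains that form its network, stood together at the lower end. Col4a1 stood at 422 in WT ESCs, 12783 in WT EBs, 884 in KO ESCs and 2949.5 in KO EBs, a difference of −3.18 (−3.34 to −3.02), and Col4a2 at 295 in WT ESCs, 9152 in WT EBs, 911 in KO ESCs and 2689.8 in KO EBs, with −3.39 (−3.57 to −3.21). Lama1, the laminin α chain of the early embryo, stood at 2541 in WT ESCs, 21662 in WT EBs, 619 in KO ESCs and 1033 in KO EBs, with −2.35 (−2.502 to −2.21). For collagen IV KO ESCs were above WT ESCs and KO EBs below WT EBs, whereas for Lama1 KO was lower at both stages and further below in EBs.

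The partner chains of that laminin did not move together. Lamb1, at 1660.2 and 16809 in WT and 1886 and 3970.5 in KO, had −2.27 (−2.36 to −2.17), while Lamc1, the γ chain of most laminins, had 0.05 (0.00 to 0.11) at 12688 and 16287 in WT and 8710.03 and 11608 in KO. Perlecan, Hspg2, stood at 7323 in WT ESCs, 10822 in WT EBs, 9505 in KO ESCs and 29435 in KO EBs, a difference of 1.07 (1.01 to 1.12), and agrin, Agrn, at 4734 in WT ESCs, 3778 in WT EBs, 2655 in KO ESCs and 5712 in KO EBs, with 1.43 (1.34 to 1.52). These 2 heparan sulphate proteoglycans were higher in KO than in WT EBs. Col18a1, a basement membrane collagen that also carries heparan sulphate, had 1.602 (1.03 to 2.202).

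**Figure D3:**
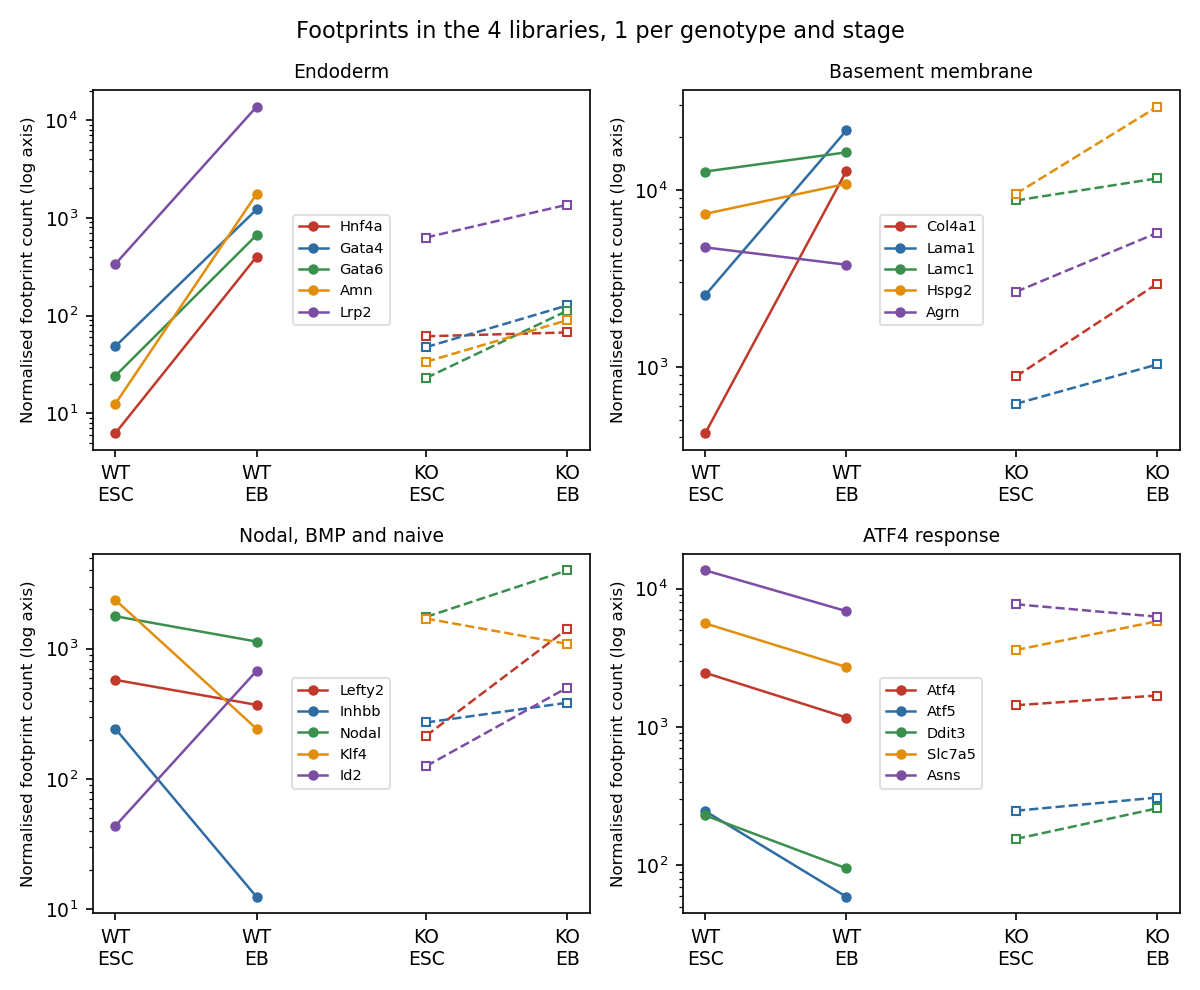
Normalised footprint counts (y axis, log scale) of 20 genes in 4 panels, each gene drawn as a line from ESC to EB in WT (filled circles) and in KO (open squares), 1 library per point. The lines of Hnf4a, Amn, Col4a1 and Lama1 climb far more steeply in WT than in KO, while those of Lefty2, Inhbb and Atf5 go down in WT and up in KO.

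Interstitial collagens and their processing enzymes were also split, with 24 of 34 autosomal members passing, 10 at 1 or more, 6 at −1 or less and a median of 0.48. KO was above WT at both stages, by a median log2 ratio of 1.55 in ESCs and 2.28 in EBs. In ESCs 15 members were at least 2-fold higher in KO and 0 lower, and in EBs 17 and 3. The collagen VI chains, which form beaded filaments around mesenchymal cells, were at the upper end. Col6a1 stood at 17.1 in WT ESCs, 109 in WT EBs, 50.1 in KO ESCs and 1964 in KO EBs and had a difference of 2.66 (1.79 to 3.402), and Col6a2 stood at 14.01 and 131 in WT and 45.9 and 1891 in KO, with 2.199 (1.251 to 2.97). Both were higher in EBs of each genotype, with the KO gain the larger. At the lower end were P3h2, a prolyl hydroxylase of collagen IV, with −4.96 (−8.76 to −3.02) at 1.56 and 293 in WT and 5.33 and 22.4 in KO, and the crosslinking enzyme Loxl2, with −2.82 (−4.25 to −1.598) and 81.5% of its coding sequence copied elsewhere. Of 21 elastic fibre and matricellular genes that passed, 7 were at 1 or more and 4 at −1 or less. There too KO was above WT, by a median log2 ratio of 1.60 in ESCs and 1.68 in EBs. Differences in this list ran from Efemp1, with −1.87 (−3.098 to −0.70), to matrix Gla protein, Mgp, with 2.28 (0.27 to 3.55).

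Contractile genes and targets of SRF and YAP, factors that respond to actin and to tension, were lower as a group among members that passed. Of 30 autosomal members 24 passed, 11 at −1 or less and 0 at 1 or more, and 22 were below 0, where 5098 of all 9265 genes were below 0. The median was −0.71. Ankrd1, a YAP target, stood at 7.005 in WT ESCs, 171 in WT EBs, 17.6 in KO ESCs and 0 in KO EBs, so that its EB over ESC ratio in WT was at least 96.2-fold that in KO with KO EBs at the floor of 3 reads. That bound leaves out the counting error of the other libraries. Myl9, the regulatory light chain of smooth muscle myosin (chromosome 2, 156775408 to 156781657), stood at 26.5 in WT ESCs, 393 in WT EBs, 88.02 in KO ESCs and 71.6 in KO EBs, a difference of −4.13 (−4.93 to −3.46). Fhl2, a cofactor of SRF, stood at 8.56 in WT ESCs, 291 in WT EBs, 15.5 in KO ESCs and 41.8 in KO EBs, with −3.56 (−4.94 to −2.41). Smooth muscle actin, Acta2, stood at 153 in WT ESCs, 288 in WT EBs, 397 in KO ESCs and 98.5 in KO EBs, with −2.91 (−3.41 to −2.44). Ankrd1, Myl9 and Acta2 had higher values in EBs than in ESCs in WT and lower values in KO. The nonmuscle myosin Myh9 differed less, with −0.63 (−0.69 to −0.57), and the actin crosslinker Csrp1, at the upper end, had 0.55 (0.36 to 0.74).

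SRF binds the CArG box, a run of A and T bases between CC and GG. It is shown for Myl9 (chr2:156775214-156775463) and Cnn2 (chr10:79988350-79988599), as members of the list counted at −1 or less whose promoters hold one. Both sequences are the 250 bases before an annotated start on the plus strand, from RefSeq, GRCm38.p6, with the box in capitals:
Myl9: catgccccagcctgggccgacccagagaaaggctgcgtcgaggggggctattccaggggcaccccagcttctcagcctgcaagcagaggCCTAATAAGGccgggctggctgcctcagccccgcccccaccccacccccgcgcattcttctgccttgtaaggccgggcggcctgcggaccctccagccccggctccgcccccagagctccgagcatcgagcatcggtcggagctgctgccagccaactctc
Cnn2: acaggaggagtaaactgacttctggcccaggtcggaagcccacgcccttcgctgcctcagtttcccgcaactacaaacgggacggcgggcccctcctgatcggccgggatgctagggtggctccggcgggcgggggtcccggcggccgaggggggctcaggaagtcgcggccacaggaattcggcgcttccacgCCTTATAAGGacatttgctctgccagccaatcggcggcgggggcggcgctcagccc
Of the 24 members 23 matched a promoter, and 5 of these had a CArG box on either strand (Cnn2, Fhl2, Myl9, Srf and Vcl). The windows searched also took in a short stretch after each start, which is not printed. The box was in 22.2% of their windows, in 1.21% of the windows of all genes tested and in 1.63% of all windows. The list holds SRF targets by its definition, so this share may follow from how it was chosen. Binding was not measured. The median difference was −1.31 for members with the box and −0.66 for those without, a gap that was not tested. Cnn2, a calponin, stood at 227 and 1546 in WT and 209 and 573 in KO, with −1.31 (−1.59 to −1.03), while Vcl and Srf themselves had −0.46 (−0.60 to −0.32) and −0.11 (−0.43 to 0.21).

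Naive pluripotency genes lay on the other side of 0. They were read in all 4 libraries, the EB libraries included. Of 21 autosomal members 17 passed, 6 at 1 or more and 0 at −1 or less, and 16 were above 0, as were 4167 of all 9265 genes. The median difference was 0.78, from a median EB over ESC ratio of −0.85 in WT and −0.15 in KO on the log2 scale. KO ESCs were below WT ESCs (median −0.62) and KO EBs above WT EBs (median 0.34). Pramel7, a protein of naive cells, stood at 106 in WT ESCs, 6.23 in WT EBs, 36.8 in KO ESCs and 34.3 in KO EBs, a difference of 3.79 (2.34 to 6.02). Klf4, a factor that sustains the naive network (chromosome 4, 55527137 to 55532475), stood at 2371 in WT ESCs, 243 in WT EBs, 1705 in KO ESCs and 1088 in KO EBs, with 2.63 (2.38 to 2.91). The junction molecule Jam2 stood at 3123 in WT ESCs, 472 in WT EBs, 1768 in KO ESCs and 1011 in KO EBs, with 1.92 (1.71 to 2.13). Klf4 and Jam2 were lower in EBs of both genotypes, with the WT decrease the larger. Pramel7 was lower in WT EBs and nearly equal in the KO libraries.

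Nanog, Tfcp2l1 and Zfp42, also of the naive network, had smaller differences than Pramel7, Klf4 and Jam2. Tfcp2l1 and Zfp42 were still above the list median of 0.78. Nanog had 0.78 (0.69 to 0.87) at 6105 and 3691 in WT and 4514 and 4675 in KO, Tfcp2l1 1.21 (1.07 to 1.35) at 5653 and 1446 in WT and 2741 and 1619.5 in KO, and Zfp42 1.39 (1.28 to 1.504) at 3510.3 and 2523 in WT and 1947 and 3675 in KO. Of these, Zfp42 was lower in WT EBs and higher in KO EBs than in ESCs, whereas Tfcp2l1 was lower in EBs of both. Gbx2 was the member below 0, with an interval that spans it, −0.45 (−1.07 to 0.17). For general pluripotency the median was 0.19 over 16 of 20 members, which changed sign to −0.14 over the 10 with under 10% of their coding sequence copied. Among them Pou5f1, which encodes Oct4, stood at 2860.4 in WT ESCs, 1493 in WT EBs, 1914 in KO ESCs and 3205 in KO EBs, with 1.68 (1.55 to 1.81) and 26.2% copied, and Sox2 had 0.99 (0.90 to 1.09). Rif1, a protein of telomeres and replication timing, had the lowest value, −0.97 (−1.06 to −0.89).

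Formative and primed genes, which epiblast cells switch on as they leave the naive state, had members counted in both directions. Of 20 members 9 passed, 3 at 1 or more and 2 at −1 or less, beside 10.8% and 12.6% of all genes. The median was 0.74, near the 0.78 of the naive genes, with 7 members above 0 and 2 below. The zinc finger factor Sall3 stood at 454 in WT ESCs, 38.96 in WT EBs, 240.05 in KO ESCs and 242 in KO EBs, a difference of 3.52 (2.91 to 4.25). Pou3f1, also called Oct6, was higher in EBs of both genotypes and more so in WT, at 63.8 and 315 in WT and 118 and 248 in KO, with −1.22 (−1.72 to −0.74). Sox4 had −1.84 (−2.29 to −1.42).

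Inhbb and Lefty2, of the Nodal and activin branch, had differences above the 99th percentile of all genes, which was 2.76. Nodal and the activins bind shared receptors and signal through SMAD2 and SMAD3, Lefty proteins block Nodal, and BMPs signal through another set of SMADs that switches on Id genes. Of 34 autosomal members 27 passed, 11 at 1 or more and 4 at −1 or less, with a median of 0.89. Inhbb, which encodes the βB subunit of activin (chromosome 1, 119415463 to 119422248), stood at 244 in WT ESCs, 12.5 in WT EBs, 272 in KO ESCs and 385 in KO EBs. The ESC libraries were close, and KO EBs were 30.9-fold (15.4 to 72.3) above WT EBs, a difference of 4.69 (3.76 to 6.04). Lefty2 (chromosome 1, 180893108 to 180899107) stood at 577 in WT ESCs, 371 in WT EBs, 214 in KO ESCs and 1415 in KO EBs, with 3.35 (3.08 to 3.64). It crossed, 2.69-fold (2.38 to 3.04) lower in KO ESCs and 3.81-fold (3.31 to 4.42) higher in KO EBs, although 39.4% of its coding sequence is copied elsewhere in the genome.

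Nodal itself was at 1776 and 1753 in WT and KO ESCs and at 1135 and 3996 in the EBs, a difference of 1.83 (1.69 to 1.98). Tgfb1 had 2.45 (1.84 to 3.13), and Inhba, the βA subunit, 1.997 (1.04 to 2.99). So the genes for Nodal and for both activin β subunits were each higher in KO than in WT EBs while their ESC libraries were at most 25% apart. The receptor genes Acvr1b and Acvr2b had 0.74 (0.50 to 0.98) and 0.72 (0.43 to 1.03).

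The BMP side held the lowest members. Noggin, Nog, which binds BMPs outside the cell, stood at 3.11 in WT ESCs, 96.6 in WT EBs, 30.9 in KO ESCs and 19.4 in KO EBs, a difference of −5.22 (−7.703 to −3.82). Bmp2 stood at 3.11 in WT ESCs, 85.7 in WT EBs, 5.87 in KO ESCs and 8.96 in KO EBs, with −3.86 (−6.604 to −1.87), where both ESC values rest on 4 and 11 reads. Id2, at 43.6 and 675 in WT and 125 and 503 in KO, had −1.93 (−2.44 to −1.47). Not all BMP genes lay there: Bmp4 had 1.19 (0.48 to 1.94) and Id3 1.77 (1.397 to 2.15), the latter from 183 and 217 in WT and 180.3 and 728 in KO. Id1 was higher in EBs of both genotypes, at 87.2 and 603 in WT and 60.3 and 548 in KO, with 0.39 (−0.05 to 0.84).

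Growth factors and receptors of other families added to the upper end. Of 8 PDGF and VEGF genes that passed, of 15, 5 were at 1 or more and 1 at −1 or less. Pdgfc, a PDGF ligand (chromosome 3, 81036416 to 81214040), stood at 272 in WT ESCs, 17.1 in WT EBs, 702 in KO ESCs and 670.2 in KO EBs. It was 15.9-fold (8.77 to 32.1) lower in WT EBs than in WT ESCs and nearly equal in the KO libraries, a difference of 3.85 (3.05 to 4.95). The VEGF receptors parted: Kdr had 1.71 (0.43 to 3.34) and Flt1 −2.1996 (−3.06 to −1.42), the latter higher in EBs of both genotypes at 18.7 and 564 in WT and 26.1 and 169 in KO. The neurotrophin receptor Ngfr stood at 762 in WT ESCs, 96.6 in WT EBs, 334 in KO ESCs and 582 in KO EBs, with 3.77 (3.36 to 4.22), and the receptor Notch4 (chromosome 17, 34564286 to 34588543) at 511 in WT ESCs, 93.5 in WT EBs, 124 in KO ESCs and 479 in KO EBs, with 4.38 (3.93 to 4.87). Notch4 was at least 2-fold lower in WT EBs and at least 2-fold higher in KO EBs than in the ESCs.

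Endothelial genes were few above the filter. Of 14, 7 passed, 4 at 1 or more and 0 at −1 or less. Mmrn2, a matrix glycoprotein of endothelium, stood at 259 in WT ESCs, 77.9 in WT EBs, 221 in KO ESCs and 552 in KO EBs, a difference of 3.04 (2.57 to 3.56), and the vesicle diaphragm protein Plvap had 3.17 (1.91 to 6.26), its KO ESC value resting on 3 reads. Their median of 1.69 became −0.07 when members with a mean of 10 to 25 were let in. None of 16 autosomal blood markers passed, 6 of 25 heart and muscle markers did, and 12 of 24 neural markers did with 3 counted each way. Over all genes 10.8% were at 1 or more and 12.6% at −1 or less. Of 29 regulators of mesoderm and mesenchyme 10 passed, 4 at 1 or more, and the exception was Snai1, a repressor of E-cadherin. Snai1 stood at 34.2 in WT ESCs, 411 in WT EBs, 150.4 in KO ESCs and 339 in KO EBs, with −2.38 (−2.97 to −1.87). It was higher in KO ESCs and nearly equal in the EBs.

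Wnt targets are switched on in ESCs by the GSK3 inhibitor of the medium. Of 18 members 12 passed, 5 at 1 or more and 2 at −1 or less, with a median of 0.45. The homeobox gene Cdx1 stood at 269 in WT ESCs, 1.56 in WT EBs, 37.9 in KO ESCs and 22.4 in KO EBs, where the WT EB value is 1 read, a difference of 5.99 (3.91 to 12.05). Notum, a secreted Wnt inhibitor, stood at 739 in WT ESCs, 65.5 in WT EBs, 512 in KO ESCs and 413 in KO EBs, with 3.17 (2.696 to 3.71), and the inhibitor Sfrp1 at 2559.9 in WT ESCs, 459.8 in WT EBs, 2633 in KO ESCs and 2596 in KO EBs, with 2.45 (2.27 to 2.65). All 3 were lower in EBs than in ESCs in WT by a larger ratio than in KO. The antagonist Dkk1 went the other way, at 7.005 and 140.3 in WT and 8.54 and 26.9 in KO, with −2.59 (−4.23 to −1.14), and the activin antagonist Fst had −1.73 (−2.17 to −1.31).

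ERK targets, held down in ESCs by the MEK inhibitor, split. Of 21 that passed, 12 were at least 2-fold higher in EBs in WT and 13 in KO, and the median difference was −0.23 with 3 at 1 or more and 5 at −1 or less. Over all genes these last shares were 10.8% and 12.6%. Dusp4, a phosphatase that limits the cascade, had −2.18 (−2.64 to −1.77) at 54.5 and 1203 in WT and 137 and 658 in KO. The early response factor Egr1 stood at 10.9 and 85.7 in WT and 4.27 and 229.9 in KO, with 2.59 (1.32 to 4.31), and the receptor Epha2 at 3440.2 and 1889 in WT and 2759 and 6142 in KO, with 2.02 (1.91 to 2.13). Both genotypes thus showed higher ERK targets in EBs, and members differed in which genotype gained more.

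The ATF4 and amino acid response had more members counted at 1 or more than any other list except ribosomal proteins. ATF4 is a transcription factor whose own mRNA is translated more when eIF2 is phosphorylated, as in amino acid shortage or protein folding stress, and its targets import and make amino acids. Of 38 autosomal members 33 passed, 19 at 1 or more, 1 at −1 or less and 30 above 0, with a median of 1.24. In WT the median EB over ESC ratio was −0.76 on the log2 scale and 12 members were at least 2-fold lower in EBs, 1 higher. In KO the median was 0.25, with 4 at least 2-fold higher and 1 lower. KO ESCs were below WT ESCs by a median of −0.33 and KO EBs above WT EBs by 0.88, so the difference was made of both stages. Over the 28 members with under 10% copied the median was 1.24.

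Among the factors of the response, differences ran in both directions. Atf5, a sister factor of ATF4, stood at 247 in WT ESCs, 59.2 in WT EBs, 248 in KO ESCs and 309 in KO EBs, a difference of 2.36 (1.82 to 2.95). Atf4 itself stood at 2462 in WT ESCs, 1169 in WT EBs, 1435 in KO ESCs and 1687 in KO EBs, with 1.31 (1.15 to 1.46), and Ddit3, which encodes CHOP, at 229.6 in WT ESCs, 95.1 in WT EBs, 155 in KO ESCs and 258 in KO EBs, with 1.99 (1.51 to 2.51). In these 3, EBs were below ESCs in WT and above them in KO. Cebpg and Atf3 went against them, with −0.82 (−1.16 to −0.48) and −1.27 (−1.99 to −0.61).

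Among transporters, Slc7a11, the cystine importer, had 2.48 (1.21 to 4.22) at 61.5 and 9.35 in WT and 48.5 and 44.8 in KO. Slc7a5 and Slc1a5, importers of large neutral amino acids and of glutamine, followed it. Slc7a5 stood at 5603 in WT ESCs, 2709 in WT EBs, 3597 in KO ESCs and 5806 in KO EBs, with 1.74 (1.64 to 1.84), and Slc1a5 at 3119 in WT ESCs, 1311 in WT EBs, 3506 in KO ESCs and 5109 in KO EBs, with 1.79 (1.67 to 1.92). All 3 transporters were within 2-fold of WT in KO ESCs and at least 2-fold above WT in KO EBs. The glutamine importer Slc38a2 did not share this, with 0.08 (−0.03 to 0.19) at 2436 and 4163 in WT and 1899 and 3429 in KO.

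The stress cytokine Gdf15 stood at 269 in WT ESCs, 131 in WT EBs, 589.99 in KO ESCs and 1249 in KO EBs, 2.06-fold (1.62 to 2.64) lower in WT EBs and 2.12-fold (1.93 to 2.32) higher in KO EBs than in ESCs, a difference of 2.12 (1.75 to 2.51). Among enzymes, asparagine synthetase, Asns, stood at 13545 and 6868 in WT and 7703 and 6262 in KO, with 0.68 (0.61 to 0.75), and the transaminase Got1 was equal in both, with −0.02 (−0.13 to 0.09). The related stress lists had smaller medians, and their counts stand beside 10.8% of all genes at 1 or more and 12.6% at −1 or less. Of 27 genes of ER translocation and folding that passed, 3 were at 1 or more and 0 at −1 or less, with a median of 0.42 and Sdf2l1 highest at 1.31 (1.11 to 1.504). Of 22 p53 targets, 3 were at 1 or more and 1 at −1 or less, with a median of 0.53, and the proapoptotic gene Bbc3 had 1.2001 (0.79 to 1.62).

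Promoters of ATF4 targets carry the element TGATGNAA, at which ATF4 binds together with a C/EBP protein. It is shown for Slc7a11 (chr3:50443614-50443863, minus strand), Chac1 (chr2:119350992-119351241, plus strand) and Nupr1 (chr7:126625471-126625720, minus strand), as members at 1 or more whose promoters hold it. Each is the 250 bases before the start in RefSeq, GRCm38.p6, 5′ to 3′, with matches on either strand in capitals:
Slc7a11: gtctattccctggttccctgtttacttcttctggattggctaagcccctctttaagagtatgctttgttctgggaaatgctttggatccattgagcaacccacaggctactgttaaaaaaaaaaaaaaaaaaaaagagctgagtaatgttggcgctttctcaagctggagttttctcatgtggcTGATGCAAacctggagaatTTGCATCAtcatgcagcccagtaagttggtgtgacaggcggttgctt
Chac1: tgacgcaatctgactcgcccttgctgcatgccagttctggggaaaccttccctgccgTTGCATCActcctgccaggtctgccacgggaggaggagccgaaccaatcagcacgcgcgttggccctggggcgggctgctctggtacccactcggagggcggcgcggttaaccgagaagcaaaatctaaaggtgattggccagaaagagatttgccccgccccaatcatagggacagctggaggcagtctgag
Nupr1: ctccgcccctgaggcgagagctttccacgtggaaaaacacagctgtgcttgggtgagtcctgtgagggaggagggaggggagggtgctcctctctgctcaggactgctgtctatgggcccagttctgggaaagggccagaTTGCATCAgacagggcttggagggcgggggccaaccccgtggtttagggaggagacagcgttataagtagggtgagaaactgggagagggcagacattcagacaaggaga
Slc7a11 has 2 matches, 66 to 59 and 47 to 40 bases before the start. Of the 33 members 28 matched a promoter and 9 of these held the element. The windows searched also took in a short stretch after each start, which is not printed. The element was in 26.5% of their windows, against 2.12% of the windows of all genes tested and 3.97% of all windows. The list was made of genes of the ATF4 response, so this share may follow from how it was chosen. Binding was not measured. Chac1, which breaks down glutathione, had 1.252 (1.002 to 1.51), and the stress factor Nupr1 1.47 (1.16 to 1.79). The median difference was 1.24 for members with the element and 1.04 for those without, a gap that was not tested. Of 10 cytosolic tRNA synthetase promoters 5 held it too, with medians of 0.38 with it and −0.01 without. Of the 14 tRNA synthetases that passed, 0 were counted in either direction, with a median of 0.15 and a range of −0.91 (Kars) to 0.58 (Yars). They were lower in KO than in WT at both stages, by medians of −0.59 in ESCs and −0.44 in EBs.

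Zinc finger genes with a number for a name (Zfp followed by digits) were the largest list. Many of these encode KRAB factors that silence transposable elements. Of 369 autosomal members 248 passed, 74 at −1 or less and 8 at 1 or more, against 12.6% and 10.8% of all genes. The median was −0.71, and −0.59 over the 172 with under 10% copied. In WT 16 were at least 2-fold higher and 13 lower in EBs, and in KO 1 higher and 58 lower. Zfp948 stood at 73.9 in WT ESCs, 219.8 in WT EBs, 139.8 in KO ESCs and 43.3 in KO EBs, higher in EBs than in ESCs in WT and lower in KO, a difference of −3.23 (−3.98 to −2.56) with 12.6% copied.

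For the m6A factors themselves the EB over ESC ratios of the 2 genotypes were within 2-fold of each other. Of 21 members 17 passed and 0 were counted, with a median of −0.29 and 13 below 0. Mettl3 (chromosome 14, 52294841 to 52308741), whose summed coding sequence counts do not check the knockout, stood at 563 in WT ESCs, 429 in WT EBs, 298 in KO ESCs and 327 in KO EBs, with the highest difference of the list, 0.53 (0.22 to 0.84). At the other end were the writer subunit Virma, with −0.81 (−0.97 to −0.66), the RNA-binding protein Igf2bp2, with −0.80 (−0.97 to −0.64), and Mettl14, the partner of Mettl3, with −0.72 (−0.99 to −0.45). The nuclear reader Ythdc1 stood at 1452 in WT ESCs, 1434 in WT EBs, 3067 in KO ESCs and 1872 in KO EBs, with −0.69 (−0.84 to −0.55). KO was higher than WT at both stages for Ythdc1 and nearer to WT in EBs.

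Of 35 autosomal genes of the interferon response and double-stranded RNA sensing 18 passed. Of these 6 were at −1 or less and 2 at 1 or more, beside 12.6% and 10.8% of all genes. The lowest were the GTPase Gbp2, with −4.595 (−7.52 to −3.04) at 2.33 and 136 in WT and 12.8 and 22.4 in KO, and Oasl2, with −2.37 (−3.93 to −1.12). In the proteasome list the interferon-inducible subunits Psmb8 and Psmb9 were the lowest, with −4.12 (−8.003 to −2.23) and −2.14 (−3.36 to −1.07), while the median of the 37 proteasome genes was 0.10. Ifitm2, with 64.5% of its coding sequence copied, was the highest interferon gene at 1.697 (1.49 to 1.91). Germline genes, several of which are silenced by DNA methylation in somatic cells, had 6 of 21 at 1 or more and 3 at −1 or less. Slc25a31, the ADP/ATP carrier of the testis, stood at 477 in WT ESCs, 148 in WT EBs, 68.8 in KO ESCs and 154 in KO EBs, a difference of 2.83 (2.34 to 3.35), with KO lower in ESCs and equal in EBs.

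Cytoplasmic ribosomal proteins held 30 of 53 members at 1 or more and 0 at −1 or less, of 77 autosomal members, with a median of 1.14. Reads from near-identical copies have no unique place and were not counted, and only 1 of the 53 has under 10% of its coding sequence copied, with a difference of 0.72. Rpsa stood at 363 in WT ESCs, 31.2 in WT EBs, 116 in KO ESCs and 581 in KO EBs and Rpl5 at 316 in WT ESCs, 24.9 in WT EBs, 99.2 in KO ESCs and 472 in KO EBs, with differences of 5.81 (5.16 to 6.62) and 5.85 (5.13 to 6.77) and every window copied elsewhere. Ferritin light chain, Ftl1, had 3.24 (2.94 to 3.56) with 89.3% copied. The values of these genes rest on the few reads that found a unique place, and the share of reads without one also differed between libraries, from 48.4% in KO ESCs to 55.7% in WT ESCs. Its part in these differences was not tested. Respiratory chain genes, less copied, had 61 of 69 above 0 with 5 at 1 or more, 1 at −1 or less and a median of 0.35, which was 0.34 over the 39 with under 10% copied.

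**Figure D4:**
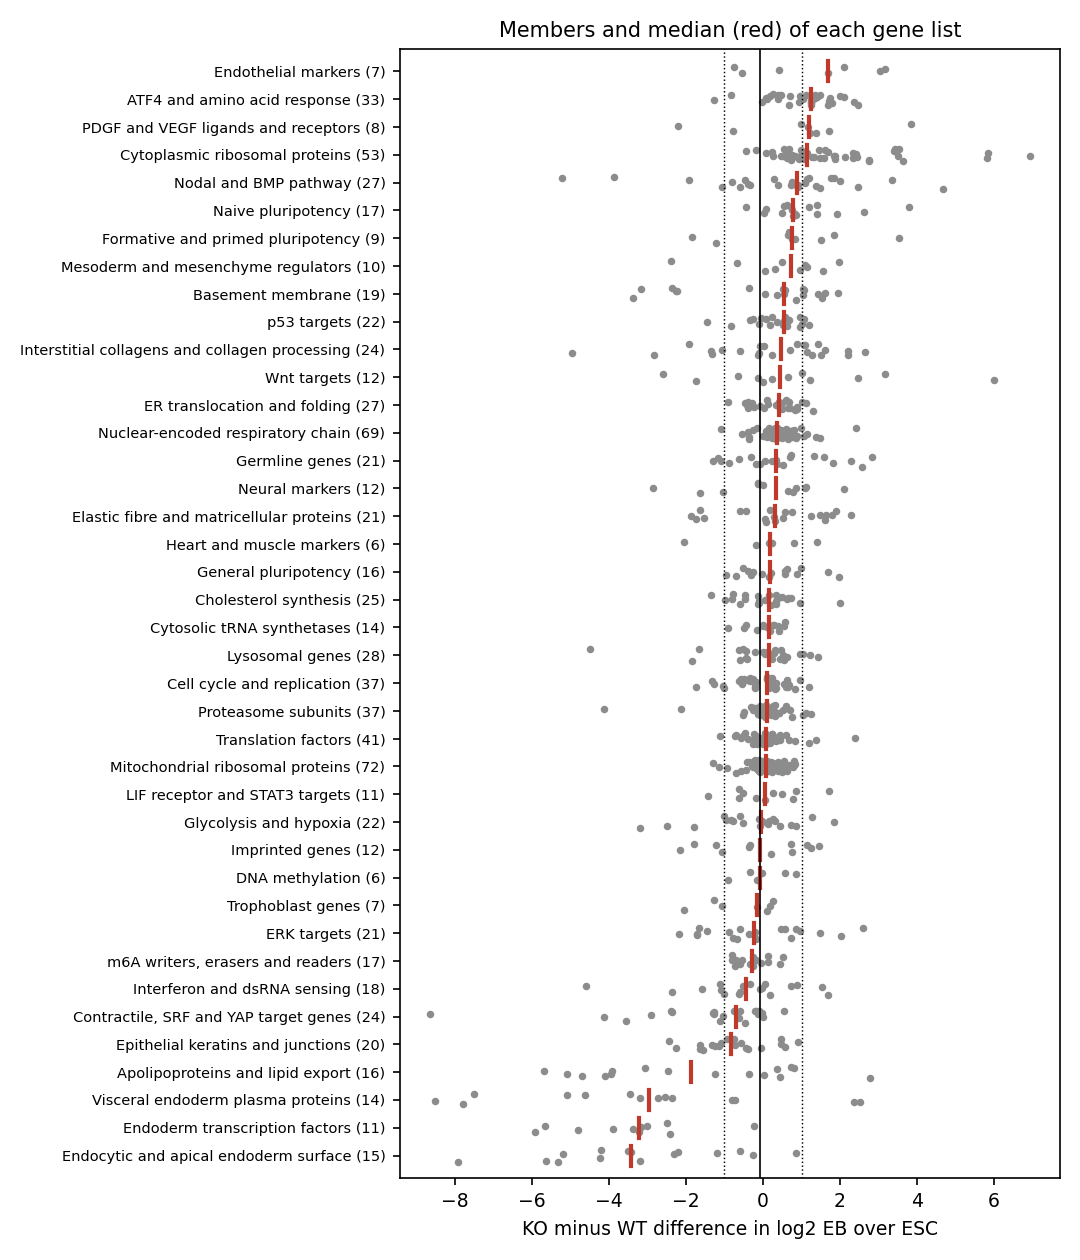
Each grey point is a list member that passed the filter, at its difference (x axis, log2), and the red bar is the median of the list, with the number of members in brackets. The solid line is the median of all genes (−0.09) and the dotted lines are 1 and −1. The 4 endoderm lists lie lowest, with medians from −3.44 to −1.87.

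A smaller set differed between genotypes in ESCs and met in EBs. Genes at least 2-fold higher in KO ESCs and at most 25% apart in EBs numbered 124 (1.34%), and those at least 2-fold lower 59 (0.637%), against 263 (2.84%) higher and 390 (4.21%) lower in KO EBs alone. At a mean of at least 100 the 5 with the largest difference among those higher in KO ESCs were Parm1, Snai1, Kndc1, Capn2 and Mapk12. The protease Capn2 stood at 273 in WT ESCs, 656 in WT EBs, 1178 in KO ESCs and 642 in KO EBs, a difference of −2.14 (−2.399 to −1.88), and the p38 family kinase Mapk12 at 24.1 in WT ESCs, 189 in WT EBs, 90.7 in KO ESCs and 175 in KO EBs, with −1.98 (−2.73 to −1.33). In Snai1 and Mapk12 the KO ESC value lay between the WT ESC value and the EB values, whereas Capn2 in KO ESCs was above both EB libraries.

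Of the genes lower in KO ESCs alone, Kirrel2 (chromosome 7, 30447766 to 30457515) and Nphs1 (chromosome 7, 30458207 to 30488623) are neighbours. Nphs1 encodes nephrin and Kirrel2 another adhesion molecule of its family. Nphs1 stood at 241 in WT ESCs, 376 in WT EBs, 36.8 in KO ESCs and 400.04 in KO EBs, a difference of 2.77 (2.33 to 3.27), and Kirrel2 at 172 in WT ESCs, 210.4 in WT EBs, 26.1 in KO ESCs and 189.6 in KO EBs, with 2.52 (1.98 to 3.17). The pair shared its pattern over the 4 libraries, with KO ESCs alone standing low. The other leading genes were Slc25a31, the histone H2ac1 and the F-box protein Fbxo2, with 2.11 (1.59 to 2.65) and 1.93 (1.36 to 2.53) for the last 2.

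Ranked by the difference at a mean of at least 100, genes higher in KO EBs alone were led by Inhbb, Dmgdh, Myo1f, Mmrn2 and Tmem117. Dmgdh, a mitochondrial enzyme of choline breakdown, stood at 330.01 in WT ESCs, 4.68 in WT EBs, 348 in KO ESCs and 124 in KO EBs, a difference of 4.38 (3.04 to 6.96) with 3 reads in WT EBs. Myo1f, an unconventional myosin, stood at 518 in WT ESCs, 34.3 in WT EBs, 473 in KO ESCs and 302 in KO EBs, with 3.23 (2.61 to 3.99). Both were lower in EBs of each genotype and by far the lowest in WT EBs.

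Crossing genes showed KO on opposite sides of WT at the 2 stages. The 77 with KO above WT in ESCs and below it in EBs were led, by the smaller of the 2 gaps at a mean of at least 100, by Klb, Muc13, Hnf4a, the metalloprotease Adamts1 and the semaphorin Sema6a. Adamts1 stood at 18.7 in WT ESCs, 407 in WT EBs, 77.9 in KO ESCs and 95.5 in KO EBs, with −4.08 (−4.95 to −3.38), and Sema6a at 20.2 in WT ESCs, 502 in WT EBs, 111 in KO ESCs and 128 in KO EBs, with −4.36 (−5.16 to −3.72). Both KO libraries of each were nearly equal and lay between the 2 WT libraries. Ranked likewise, the 54 that crossed the other way were led by Rpsa, Rpl5, Notch4, Lefty2 and Xaf1, an interferon-induced proapoptotic gene, at 439 and 10.9 in WT and 154 and 31.3 in KO, with 2.95 (1.73 to 4.53). Kbtbd11, a gene with kelch repeats and no copied window, stood at 243 in WT ESCs, 32.7 in WT EBs, 121 in KO ESCs and 428 in KO EBs and had a difference of 4.67 (4.02 to 5.48).

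The remaining lists are given by how many members were at 1 or more and at −1 or less, beside 10.8% and 12.6% of all genes. Of 37 cell cycle genes 1 was at 1 or more and 5 at −1 or less, with a median of 0.10 and Mki67 at −1.32 (−1.49 to −1.15). Mitochondrial ribosomal proteins had 0 and 2 of 72, with 0.08, cholesterol synthesis 1 and 1 of 25, with 0.16, and translation factors 3 and 1 of 41, with 0.09. Glycolysis and hypoxia genes had 2 and 4 of 22, among them Car12 at −3.19 (−4.27 to −2.25). Lysosomal genes had 3 and 3 of 28, LIF and STAT3 targets 1 and 1 of 11, imprinted genes 3 and 4 of 12, trophoblast genes 0 and 3 of 7, and DNA methylation genes 0 of 6 either way. The lists apart, counted genes differed in length: the median coding length was 1233 nt for genes at 1 or more, 1362 nt for genes within 1 and 1632 nt for genes at −1 or less. Spearman's coefficient between the difference and coding length was −0.17 over 9263 genes, and −0.0035 with mean count, as a description across genes that share the same 4 libraries. The part of length in the differences was not tested.

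The 4 libraries allow no test of the difference itself, since it uses the last degree of freedom. A model with stage and genotype as separate terms, which treats the difference as noise, was fitted to the reads with edgeR's quasi-likelihood test. At a Benjamini-Hochberg adjusted p of 0.05 it called 19 autosomal genes higher and 2 lower in EBs, where DESeq2 called 254 and 90. Between genotypes it called 0, although 1492 genes had an unadjusted p below that value, and DESeq2 put 240 genes higher in KO and 66 lower.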

How the data were processed

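Ribosome footprints were measured in 1 library each of WT ESCs, WT EBs, Mettl3-KO ESCs and Mettl3-KO EBs. The submitters' processing notes name build mm10 and the tools TopHat2 2.0.10, Bowtie, HTSeq 0.6.0, DESeq and CASAVA 1.8.2. The sources used here give no settings, annotation or strand treatment. For each RefSeq coding sequence the authors deposited a normalised signal, a read count divided by 1 factor per library. In every library 100% of the values were whole multiples of 1 read (tolerance 0.01), worth 0.778 (WT) and 0.533 (KO) in ESCs and 1.56 (WT) and 1.49 (KO) in EBs. Normalised values had been assumed, but reads could be recovered and served for intervals and a count test.

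Of 27442 sequences 27083 matched a symbol and an assembly GRCm38.p6 position (the same assembly as mm10), and sequences of a gene were summed. The other 359 had at most 0.422% of the gene reads and stayed separate, with no position. The 5 entries that name no gene were dropped, which left 27.9% to 33.4% of the reads. The difference was taken on log2(value + 1), which understates changes of low genes, with a mean of at least 25. Its 95% interval is the conditional exact interval of the odds ratio (R 4.3.3), tested on simulated data. The floor for a library at 0 was 3 reads. Each 28-nt window of a coding sequence was searched in the genome on both strands to give the percent copied elsewhere. Additive stage and genotype terms were fitted with edgeR 4.0.16 and DESeq2 1.42.0.

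The genes and gene lists were chosen with earlier results of these data known. The text names Mettl3, then the 12 highest and 12 lowest by the interval bound nearest 0 (mean of at least 100), 5 genes of each pattern between libraries, and the 3 highest and 3 lowest members of each list, except a few genes that are not reported here. Acta2, Acvr1b, Acvr2b, Agrn, Asns, Atf4, Bmp4, Chac1, Cnn2, Ddit3, Gata4, Hspg2, Id1, Id3, Inhba, Lamb1, Lamc1, Lrp2, Myh9, Nanog, Nupr1, Slc1a5, Slc38a2, Slc7a5, Srf, Tfcp2l1, Tmprss2, Vcl, Ythdc1 and Zfp42 were added after their values were seen. Alternatives of pseudocount, mean, scaling, copied sequence and chromosomes were computed.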

Additional observations from a re-analysis of the deposited data

Results flagged for a closer look

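Each gene below was at least 2-fold apart between ESCs and EBs, as the value + 1, in opposite directions in WT and KO. With 1 library per group, the difference was not tested. Those lower in WT EBs and higher in KO EBs were Notch4 (difference 4.38), Kbtbd11 (4.67), Mmrn2 (3.04), Slc25a31 (2.83), Abca1 (2.77), Ndufa4l2 (2.42) and Gdf15 (2.12), and, with 89.3% to 100% of their coding sequence copied elsewhere in the genome, Rpl21 (6.93), Rpl5 (5.85), Rpsa (5.81), Rps12 (3.43) and Ftl1 (3.24). Those higher in WT EBs and lower in KO EBs were Klb (−7.36), Cemip (−4.98), Zfp948 (−3.23) and Ak3 (−3.08), and Ankrd1 (−8.65) and Habp2 (−7.79), whose values depend on the pseudocount because they had 0 reads in KO EBs. For Habp2 the reads do not show the KO direction. Its KO ESC value of 1.600 is 3 reads, and 3 reads in KO EBs would be 4.478. Ndufa4l2, a respiratory chain subunit paralogue, stood at 38.9 in WT ESCs, 17.1 in WT EBs, 41.6 in KO ESCs and 103 in KO EBs, and the mitochondrial kinase Ak3 at 79.4 in WT ESCs, 271 in WT EBs, 124 in KO ESCs and 49.3 in KO EBs.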

How the results depend on the processing

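Of 9265 genes, 998 were at 1 or more and 1168 at −1 or less. With a mean of at least 100 the counts were 558 and 720, out of only 7196 genes tested. They were 420 and 486 of 9265 when the whole counting interval had to lie beyond the limit. Pseudocounts of 0.1 and 5, a mean of at least 10, every chromosome, genes under 10% copied, equal totals of reads on genes and TMM factors each left both counts within 1.5 times. Equal totals gave 990 and 1187 and TMM factors 1063 and 1095, with the median of all genes moved by −0.009 and 0.035. The median difference changed sign for general pluripotency genes under 10% copied (−0.14) and for endothelial genes with a mean of at least 10 (−0.0665), as well as for imprinted genes (−0.07) with a mean of at least 10 (0.13) or 100 (0.19), and for translation factors under 10% copied it went from 0.09 to just under 0. That of trophoblast genes went from −0.15 to −1.07 with a mean of at least 10, and that of Col15a1, at 0 reads in WT ESCs, became −0.73 with a pseudocount of 0.1. No paired analysis was possible because the result comes from no test and each group had 1 library. Depth limits low genes most: at a mean of 25 to 50 the median half-width of the counting interval was 1.27.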

Other observations

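X-linked genes, left out above, were counted upward more often than any autosome. Of 332 X-linked genes with a mean of at least 25, 93 (28.01%) had a difference of 1 or more and 23 (6.93%) of −1 or less, with a median of 0.38. The medians of the 19 autosomes ran from −0.26 on chromosome 18 to 0.06 on chromosome 7, and their shares at 1 or more from 7.89% on chromosome 12 to 13.9% on chromosome 17. The median X-linked EB over ESC ratio was −0.25 in WT and 0.17 in KO, and the KO over WT ratio −0.20 in ESCs and 0.16 in EBs, all on the log2 scale. For the 4 Y-linked genes with a mean of at least 25, the median EB over ESC ratio was −4.48 in WT and −5.08 in KO. Their median KO over WT ratio was 2.15 in ESCs and 1.11 in EBs, also on the log2 scale. The sources used here do not give the sex of either line, and its part in these X- and Y-linked values was not tested.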
